A study of Caenorhabditis elegans and Caenorhabditis briggsae
Caenorhabditis elegans with 146 samples.

Results

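The col genes are the large family of C. elegans collagen genes that carry the symbol col and a number. All genes of the FPKM table whose public name has that form were taken, on every chromosome, which gave 159 members among 20411 genes. Of these members, 22 lie on chromosome I, 25 on II, 12 on III, 42 on IV, 30 on V and 28 on X, as placed by the RefSeq table of assembly WBcel235. Chromosome X held 17.6% of the members and 13.7% of all placed genes, and chromosome IV held 26.4% of the members and 16.3% of all placed genes. The symbol was the only criterion, so the set also holds *col-99*, which encodes a transmembrane collagen and not a secreted cuticle collagen.

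The cuticle is the extracellular coat of the worm and consists mostly of small collagens that the epidermis secretes. A cuticle is first made in the late embryo, and a new one is made under the old one before each molt, so collagen transcripts rise and fall in waves within every larval stage. Collagens of the furrows, such as DPY-7 and DPY-10, are known to be made early in each wave, and several col genes later in it. The symbols *col-19*, *col-7* and *col-62* belong to collagens of the adult cuticle, and *col-2* and *col-40* to collagens known from dauer larvae.

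The study measured stranded, single-end mRNA-seq of polyadenylated RNA from whole embryos and larvae to follow dosage compensation of the X chromosome. Each value is in FPKM, a fragment count scaled by transcript length and sequencing depth, so levels can be set beside each other between genes. Hermaphrodites were the strain N2 and mixed sex worms the strain BS553, *fog-2(oz40)*, so sex and strain cannot be told apart. Both were collected as early embryos (EE, 3 and 3 libraries), as comma stage embryos aged for 4 h (3 and 3), as L1 larvae fed for 6 h and as L3 larvae fed for 24 h (3 and 3). N2 L1 replicate 3 and mixed sex L1 replicate 1 held the same value for 20376 of 20376 genes, and this library was left out of both groups, which leaves 2 and 2.

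The mutants were CB428, *dpy-21(e428)*, as EE (3 libraries), mixed embryos (4) and L3 (4); MK4, *dpy-27(y56)*, as EE (3) and L1 (3); and MT14911, *set-4(n4600)*, as mixed embryos (4) and L3 (4). The *dpy-27(y56)* allele is kept over the balancer qC1, which carries the *rol-6(su1006)* marker, and homozygous embryos came from young adults that did not roll. Heterozygous *dpy-27(y56)* EE (2 libraries) came from the same strain. A second collection of N2 L3 larvae (4) served as the control of both L3 mutants, *dpy-21(e428)* and *set-4(n4600)*. The larvae of SS1075, *set-1(tm1821)*/hT2g, were separated by the fluorescence of the balancer into homozygotes (3) and heterozygotes (3); the labels call them L2 and the paper L3. RNA interference (RNAi) by feeding was done on N2 with bacteria for *dpy-27* or with an empty vector, in mixed embryos (4 and 6 libraries) and in L3 larvae (4 and 4). For the spike-in experiment, N2 and *set-4(n4600)* L1 larvae (3 and 3) were mixed with L1 larvae of C. briggsae strain AF16. The study describes the libraries as biological replicates and states in general that several collections were pooled for a replicate. No label ties a library to a culture or day. In bulk RNA, fewer cells of a type and less RNA per cell cannot be told apart.

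The labels were checked with the targeted genes. The level of *set-4* was 0.895 FPKM or lower in every *set-4(n4600)* L3 library and between 7.96 and 11.2 in the N2 L3 libraries of the same collection. In mixed embryos it was 0.0430, 52.6, 0.138 and 0.0534 FPKM in the *set-4(n4600)* libraries, so the library labelled *set-4(n4600)* mixed embryo replicate 2 goes against its label. In the *dpy-21(e428)* mixed embryo libraries it was 62.2, 32.7, 0.223 and 44.4 FPKM, so the library labelled *dpy-21(e428)* mixed embryo replicate 3 goes against its label too. Both libraries were kept under their labels, and the comparison that uses them is given with and without them. The level of *dpy-27* under RNAi was between 26.0 and 36.9 FPKM in mixed embryos, where the vector libraries had between 64.9 and 135 FPKM. At L3 it was 115, 15.8, 15.7 and 19.9 FPKM under *dpy-27* RNAi and between 17.1 and 26.0 with the vector, so transcript levels at L3 did not show the knockdown. The study assessed the knockdown by protein, which was not analysed here. In mixed embryos *dpy-21* was at 34.6, 31.4, 46.5 and 35.1 FPKM in *dpy-21(e428)* and 74.3, 36.5, 62.5 and 58.7 in *set-4(n4600)*. Both libraries that go against their label thus lay outside the range of the others of that label. Whether they were exchanged was not tested. In early embryos *dpy-21* was at 75, 48.5 and 21.3 FPKM in *dpy-21(e428)* and between 83.6 and 88.6 FPKM in N2, without overlap. The heterozygous *dpy-27(y56)* early embryos had 75 FPKM in replicate 1 and 200 FPKM in replicate 2. At L3 *dpy-21* overlapped with its N2 control. Levels of *dpy-27* and *set-1* overlapped between mutant and control, so they do not check the *dpy-27(y56)* or *set-1(tm1821)* labels.

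Levels of the col genes rose by orders of magnitude through development. In N2 early embryos, 49 of the 159 members had a mean above 1 FPKM and 1 of them, *col-99*, was above 10 FPKM, at 11.6. In N2 comma stage embryos 73 members were above 1 FPKM, 4 were above 100 FPKM and the highest was *col-76* at 362.6. In N2 L1 larvae 6 members were above 1000 FPKM, led by *col-10* at 2383 FPKM. In N2 L3 larvae 98 members were above 1 FPKM, 44 above 100 and 17 above 1000, and *col-10* reached 6228 FPKM. The summed level of the family was between 134.6 and 153.0 FPKM in the N2 early embryo libraries and between 46590 and 80020 FPKM in the N2 L3 libraries. The 10 highest members held 32.0% of the summed level in early embryos, 71.5% in comma stage embryos, 76.8% in L1 and 65.7% in L3.

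Each member was placed in the stage set where its N2 mean was highest, provided that this mean was above 1 FPKM. The EE set had 12 members with a median of 2.54 FPKM, the comma set 12 with a median of 28.4, the L1 set 37 with a median of 1.93 and the L3 set 82 with a median of 129.7, while 16 members were above 1 FPKM at no stage. The N2 values chose the sets, so the levels in N2 are a description. In the mixed sex libraries, which did not choose them, 10 members of the EE set, 8 of the comma set, 2 of the L1 set and 79 of the L3 set had their highest mean at the same stage. Of the L1 set, 24 members had no stage above 1 FPKM in the mixed sex libraries. The L1 set rested on N2 L1 replicate 2, in which 134 members were above 1 FPKM, against 81 in N2 L1 replicate 1 and 67 to 78 in the other L1 libraries kept. Without that library the L1 set had 11 members, of which 7 were in the first set.

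**Figure D1:**
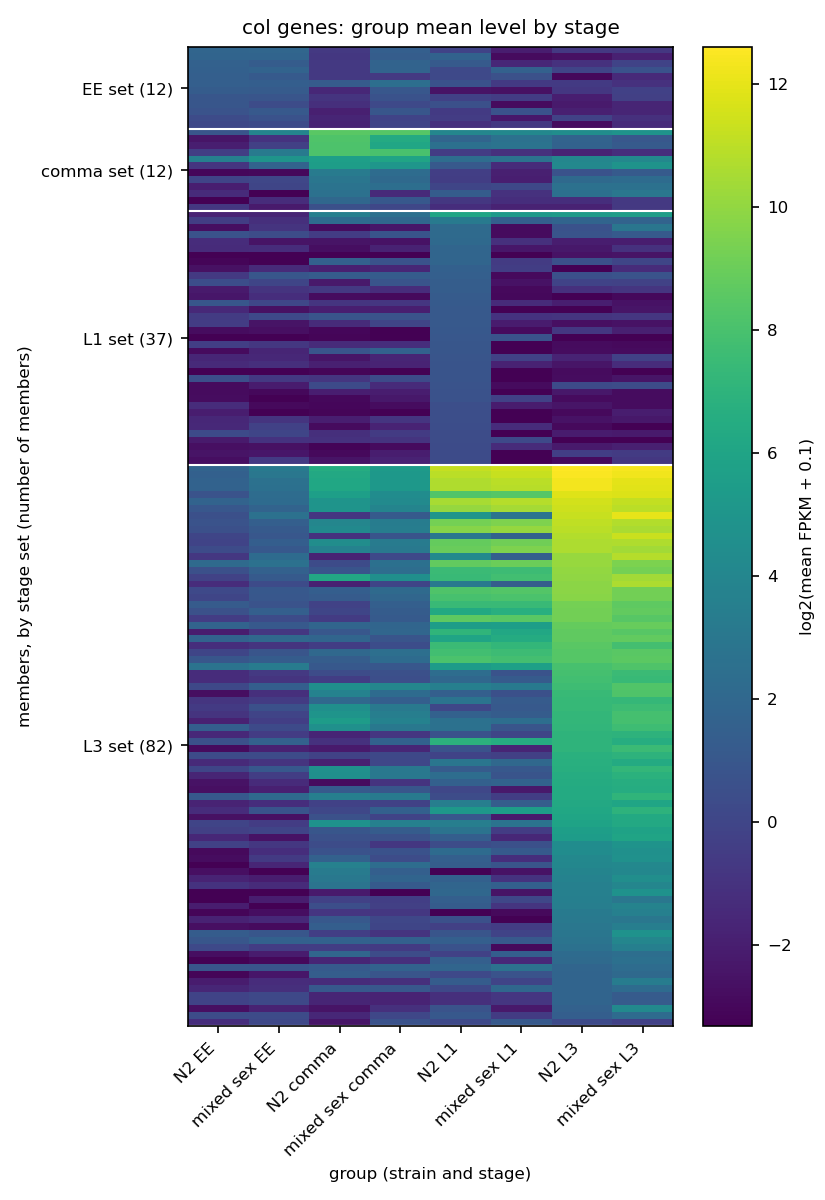
Mean level of the 143 members that have a stage set, as log2 of mean FPKM + 0.1 (colour), in N2 and mixed sex libraries of 4 stages (columns), with members ordered by stage set (rows). The 82 members of the L3 set carry the highest levels, some already high in L1, while most of the 37 members of the L1 set stand out in the N2 L1 column and not in the mixed sex L1 column.

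The highest members of the EE set were *col-122*, *col-119*, *col-140* and *col-124*. The level of *col-122* was 1.99, 1.18 and 7.70 FPKM in the N2 early embryo libraries, and that of *col-119* was 1.34, 1.15 and 7.96 FPKM. For *col-140* the values were 1.89, 1.63 and 5.46 FPKM. In each of these genes N2 EE replicate 3 was the highest library, and the same holds for *col-124* (1.84, 1.29 and 5.51 FPKM) and for the adult collagen *col-19* (1.03, 0.688 and 3.08 FPKM). The summed level of the adult markers *col-19*, *vit-2* and *vit-6* (vit genes encode yolk proteins that the adult intestine makes) was 4.68, 3.38 and 9.97 FPKM in these libraries, again highest in replicate 3. The part of adult RNA in the EE set was not tested. Without N2 EE replicate 3 the EE set had 6 members.

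The highest members of the comma set were *col-76*, *col-165*, *col-74* and *col-121*. The level of *col-76* in N2 comma embryos was 371.7, 350.9 and 365.1 FPKM, and that of *col-121* was 317.1, 279.4 and 262.7 FPKM. For these genes the replicates lay close together and far above the early embryos, which had at most 1.94 and 1.01 FPKM. The level of *col-165* was 104.5, 70.0 and 702.5 FPKM and that of *col-74* was 83.5, 54.9 and 732.8 FPKM. Both were far above early embryos in every comma library and highest in N2 comma replicate 3, the library that also had the highest summed level of the family, 4687 FPKM against 1025 and 1291, and of the body wall muscle markers, 2704 FPKM against 1403 and 1544. The furrow collagens did not share this order, with 2966, 2461 and 2684 FPKM summed in these libraries.

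The highest members of the L1 set were *col-118* (90.5 and 39.3 FPKM in the N2 L1 libraries), *col-53* (13.5 and 4.99), *col-49* (0.789 and 8.28) and *col-106* (1.13 and 7.73). Their libraries differed so much that the place of the last 2 genes in the set depended on replicate 2. By contrast, *col-10* and its neighbours were high in the N2 and mixed sex L1 libraries with FPKM values, but higher still in L3. The level of *col-10* was 2622 and 2144 FPKM in N2 L1 and 4430, 4229 and 10030 FPKM in N2 L3, and replicate 3 of L3 was the highest. Its near copy *col-144* had 4062, 3927 and 9160 FPKM in N2 L3, and the pair *col-3* and *col-117* had 3594, 3865 and 7904 FPKM and 3529, 3803 and 7774 FPKM.

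Not all L3 members followed this order of libraries. The level of *col-17* in N2 L3 was 3390, 3452 and 600.6 FPKM, so replicate 3 was the lowest library for *col-17* and the highest for *col-10*. The transmembrane collagen *col-99* had 15.9, 15.1 and 16.8 FPKM in the same libraries. The adult collagen *col-19* was at 0.199 FPKM or lower in every N2 L3 library, and the dauer collagen *col-2* was at 3.30 FPKM or lower in every FPKM library, with its highest value in N2 L1 replicate 2.

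Some members cannot be told apart by these values. The genes *col-126* and *col-127* had equal FPKM in 78 of 78 libraries, 76 of them above 0, and both had 0 counts in every spike-in library. The ratio of *col-3* to *col-117* stayed between 0.9995 and 1.054 in the 69 libraries where both were above 10 FPKM, and that of *col-10* to *col-144* between 0.970 and 1.26 in 70 libraries. For *col-92* and *col-94* the ratio was between 0.744 and 1.01 in 52 libraries, and for *col-12* and *col-13* between 1.04 and 1.68 in 39. Reads of such pairs may have been divided between the copies, so their values are not independent. Members also stand beside each other in the genome: 45 of the 157 members placed among 19983 protein-coding genes formed 19 runs of direct neighbours. In 12 of these runs all members had the same stage set. The L3 set alone holds 82 of 159 members and several of the runs hold the near copies named above, so such matches are frequent without regard to position. The run *col-144*, *col-145* and *col-10* on chromosome V was all of the L3 set, and the run *col-167* to *col-171* on chromosome X held 4 members of the L3 set and 1 of the L1 set.

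The stage steps were tested in the mixed sex libraries, which had not chosen the sets. A gene was tested if its average over both group means exceeded 1 FPKM, and differences are on the log2(FPKM + 0.1) scale, which understates the change of low genes. A gene can pass that filter through its high group alone, so the counts describe the members that were kept. The test was limma with Benjamini-Hochberg adjustment over all genes kept and a threshold of 0.05. Counts of members with an unadjusted p under 0.05 are given without the share over all genes, so they are a description.

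From early to comma stage embryos, 40 of the 83 members tested were higher and 3 lower, where 42.8% of all genes tested were higher and 38% lower. The median log2 difference was 1.5 over the members and 0.17 over all genes. The largest rise was that of *col-165*, which had 0.139, 0.0741 and 1.02 FPKM in mixed sex early embryos and 154.6, 49.2 and 49.0 FPKM at comma. Its groups did not overlap, and the log2 difference was 7.62 ± 0.78 (SE; adjusted p = 5.8e-05, limma). For *col-74* it was 7.22 ± 1.01 (adjusted p = 3.2e-04, limma), from 0.0667, 0.0709 and 1.95 FPKM to 125.3, 41.9 and 38.7 FPKM.

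The comma set moved together in this step: 10 of its 10 members tested were higher, with a median of 3.91. Among them *col-121* rose from 11.7, 10.1 and 4.85 FPKM to 276.3, 223.1 and 281.1 FPKM, and *col-76* from 17.4, 15.8 and 11.3 FPKM to 354.8, 292.4 and 354.2 FPKM. Every comma library was above every early embryo library for both genes. Of the L3 set, 26 of 54 members tested were already higher and 2 lower, and of the EE set 1 of 12 was higher and 1 lower. The 3 members that fell included *col-155*, with 9.93, 11.1 and 8.12 FPKM in early embryos and 4.04, 1.1 and 0.683 FPKM at comma (log2 difference -2.64 ± 0.59, adjusted p = 0.00385, limma), and *col-63* (-1.92 ± 0.54, adjusted p = 0.0113, limma). The fall of *col-155* was followed by a rise to 44.7 and 62.3 FPKM in L1 and 176.8, 316.5 and 397.4 FPKM in L3.

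Other genes of cuticle formation rose in the same step. Of the furrow collagens (*dpy-2*, *dpy-3*, *dpy-7*, *dpy-8*, *dpy-9* and *dpy-10*), 5 of 5 tested were higher with a median of 4.57, and of 13 molting genes, among them the metalloproteases *nas-36* and *nas-37*, 10 of 10 tested were higher with a median of 4.29. Markers of body wall muscle (6 of 6 higher, median 4.87) and of epidermis (6 of 6 higher, median 3.56) rose too, and 6 of 6 germline markers fell. Their part in the levels of the family was not tested.

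From comma embryos to L1 larvae, 31 of 82 members tested were higher and 22 lower, where 32.3% of all genes tested were higher and 29.9% lower. The median was 0.69 over the members and 0.02 over all genes. The sets went opposite ways, with 9 of 10 members of the comma set lower (median -3.77) and 30 of 60 members of the L3 set higher and 7 lower. The deepest fall was that of *col-121*, to 0.387 and 0.358 FPKM in L1 (log2 difference -8.91 ± 0.20, adjusted p = 3.2e-05, limma). The collagen gene *col-43* fell from 35.4, 28.5 and 36.2 FPKM to 0.295 and 0.273 FPKM (-6.26 ± 0.30, adjusted p = 1.3e-04, limma) and stood at 20.5, 38.3 and 27.3 FPKM in L3. The largest rise was that of *col-147*, from 3.79, 2.19 and 0.550 FPKM to 297.5 and 436.1 FPKM (7.85 ± 0.74, adjusted p = 5.5e-04, limma). For *col-168* on chromosome X the values were 21.2, 8.20 and 3.02 FPKM at comma and 803.1 and 1336 FPKM in L1 (7.19 ± 0.77, adjusted p = 8.2e-04, limma). The groups of all 4 genes were apart. In this step 4 of 6 furrow collagens and 10 of 10 molting genes tested were lower, with medians of -6.70 and -5.36.

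From L1 to L3 larvae, 79 of the 96 members tested were higher and none was lower, where 20.5% of all genes tested were higher and 13% lower. The median was 3.73 over the members and 0.09 over all genes, and in the L3 set 70 of 82 members were higher with a median of 4.16. The largest rise was that of *col-73*, with 2.70 and 3.42 FPKM in mixed sex L1 and 1397, 3088 and 3202 FPKM in L3 (9.90 ± 0.41, adjusted p = 2.96e-04, limma). For *col-41* the values were 1.24 and 4.10 FPKM and 963.8, 2175 and 2294 FPKM (9.80 ± 0.58, adjusted p = 6.2e-04, limma), and *col-17* rose from 6.52 and 7 FPKM to 2309, 5104 and 5055 FPKM (9.48 ± 0.39, adjusted p = 2.96e-04, limma). In mixed sex larvae these 3 genes were low in L1 and among the highest transcripts of the family in L3, without overlap, while in N2 L1 *col-17* was at 32.4 and 31.7 FPKM and *col-41* at a mean of 19.7 FPKM. The increase of *col-10* was smaller, from 2723 and 2997 FPKM to 5848, 5011 and 5046 FPKM (1.22 ± 0.14, adjusted p = 0.00375, limma). All 6 furrow collagens tested (median 6.71), 10 of 12 other body shape collagens (7.90) and 13 of 13 molting genes (5.66) were also higher in L3. The steps share groups of libraries and are not independent of each other.

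Hermaphrodite and mixed sex libraries were compared at comma, L1 and L3, and limma called no member; early embryos were not compared between them here. At comma, 0 of 84 members tested were called, 12 had an unadjusted p under 0.05 and the median was 0.03 against -0.00 over all genes, of which 0.0427% were higher and 0.0256% lower. In L1, 0 of 104 were called and 7 had an unadjusted p under 0.05, with a median of 0.55 against 0.03 (0% of genes higher and 0% lower). In L3, 0 of 98 were called and 2 had an unadjusted p under 0.05, with a median of -0.27 against -0.02 (0% of genes higher and 0.0157% lower). Among the members in L1 the lowest p was that of *col-17*, with 32.4 and 31.7 FPKM in N2 and 6.52 and 7 FPKM in mixed sex larvae (2.29 ± 0.31, adjusted p = 0.232, limma). The absence of calls in L1 rested on N2 L1 replicate 1, without which 1 N2 library is left.

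DPY-27 is a condensin subunit of the dosage compensation complex, which binds the hermaphrodite X chromosomes and lowers their expression. Early embryos of *dpy-27(y56)* were compared with N2. Of 63 members tested, 32 were higher and 7 lower, where 26.2% of all genes tested were higher and 21.8% lower. The median was 1.69 over the members and -0.04 over all genes. By stage set, 7 of 8 tested members of the comma set (median 4.48) and 25 of 42 of the L3 set (median 2.32) were higher, and 7 of 9 of the EE set (median -3.81) were lower. The N2 early embryo libraries that serve as the control also chose the sets, so these directions are partly fixed by that choice and are a description.

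The level of *col-165* was 0.149, 0.0508 and 0.0628 FPKM in N2 and 37.0, 143.5 and 128.3 FPKM in *dpy-27(y56)* (8.80 ± 0.55, adjusted p = 9.6e-05, limma). For *col-74* the values were 0.0948, 0.0486 and 0.301 FPKM and 29.5, 115.7 and 99.5 FPKM (8.16 ± 0.61, adjusted p = 1.2e-04, limma). Both genes were nearly absent in N2, and 2 of 3 mutant libraries lay within the range of the mixed sex comma libraries. The level of *col-121* rose from 1.01, 0.276 and 0.598 FPKM to 35.4, 68.7 and 67.3 FPKM (6.24 ± 0.46, adjusted p = 1.1e-04, limma), below its comma level.

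All 7 members called lower were of the EE set, which the control libraries chose for being high in them. The level of *col-140* was 1.89, 1.63 and 5.46 FPKM in N2 and 0, 0.160 and 0 in *dpy-27(y56)* (-4.35 ± 0.80, adjusted p = 0.00392, limma). The gene *col-20* had 1.08, 1.11 and 4.99 FPKM in N2 and was listed at 0 in every *dpy-27(y56)* library (adjusted p = 0.00585, limma). The groups did not overlap for either gene. The adult markers were lower as well: their sum was between 0.0970 and 0.458 FPKM in *dpy-27(y56)*, below the lowest N2 library, and 2 of 2 tested, *vit-2* and *vit-6*, were called lower. Their part in these values was not tested.

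Markers of later embryos differed in the same direction as the comma set. The summed level of the body wall muscle markers was between 309.1 and 608.8 FPKM in *dpy-27(y56)* early embryos and between 8.68 and 15.1 FPKM in N2, and 6 of 6 were called higher (median 4.96). Furrow collagens (4 of 4 higher, median 5.37), molting genes (10 of 10, 4.18), basement membrane collagens (3 of 3, 5.79) and epidermis markers (5 of 6, 3.56) were higher, and 6 of 6 germline markers were lower (median -1.03). The age of the embryos and the genotype cannot be told apart in this comparison. With the heterozygous embryos of the same strain as the control, limma called 0 of 73 members, 3 of which had an unadjusted p under 0.05, and the median was -1.75. In those embryos *col-165* was at 60.1 and 753.6 FPKM and *col-74* at 45.7 and 508.8 FPKM, with replicate 1 within and replicate 2 above the range of the homozygotes.

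The same comparison was split by chromosome. Of 13 X-linked members tested, 10 were higher and none lower (median 2.95), where 54% of X-linked genes were higher with a median of 1.00. Of 50 autosomal members, 22 were higher and 7 lower (median 0.83), where 21.4% of autosomal genes were higher and 2233 of 9050 lower, with a median of -0.15. The difference between X-linked and autosomal members was not tested.

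**Figure D2:**
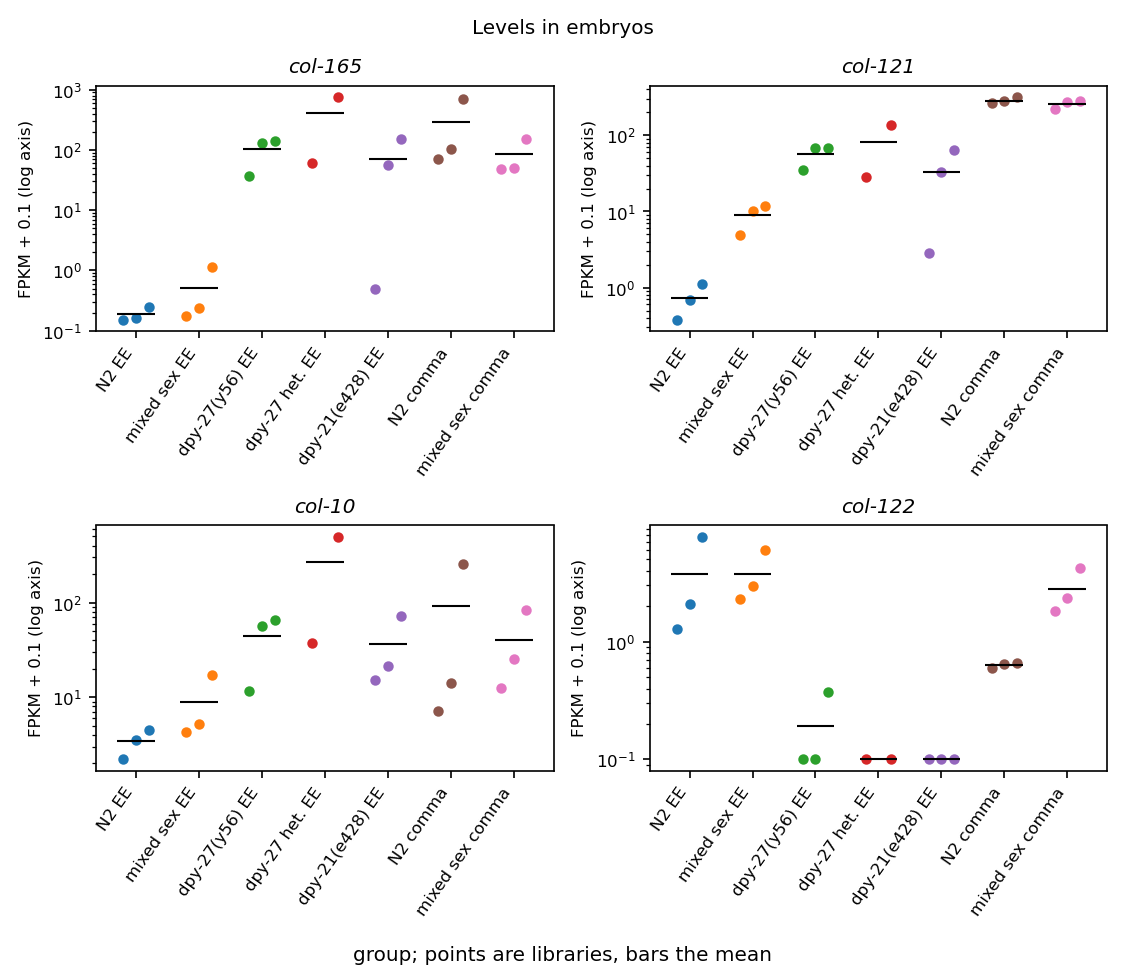
FPKM + 0.1 on a log axis for *col-165*, *col-121*, *col-10* and *col-122* in embryo groups, where points are libraries and bars the mean. All *dpy-27* and *dpy-21(e428)* early embryo libraries lie between N2 early embryos and comma embryos for *col-121*, and *col-122* is listed at 0 in 3 of 3 *dpy-21(e428)* libraries.

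In *dpy-21(e428)* early embryos the libraries differed among themselves. DPY-21 is a member of the complex outside condensin and a demethylase of histone H4 lysine 20. Of 62 members tested against N2, 11 were higher and 1 lower, where 2.83% of all genes tested were higher and 3.19% lower, and the median was 1.73 over the members and 0.00 over all genes. The level of *col-165* was 151.9, 56.6 and 0.393 FPKM in the *dpy-21(e428)* libraries, and replicate 3 was close to N2. The difference did not pass the threshold (6.66 ± 2.00, adjusted p = 0.0780, limma).

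The genes called higher were apart from N2 in replicate 3 as well. The level of *col-107* was 1.15, 0.517 and 0.662 FPKM in N2 and 71.8, 16.8 and 5.43 FPKM in *dpy-21(e428)* (4.74 ± 0.89, adjusted p = 0.0385, limma), and that of *col-144* was 3.93, 2.94 and 1.66 FPKM and 69.2, 20.1 and 13.8 FPKM (3.53 ± 0.62, adjusted p = 0.0344, limma). In both genes replicate 1 was the highest and no library overlapped with N2. The other members higher were *col-3*, *col-10*, *col-117*, *col-125*, *col-145*, *col-166*, *col-167*, *col-168* and *col-169*. The L3 set, which the same N2 libraries helped to choose, held 42 of the 62 members tested and all 11 called higher. The member called lower, *col-122*, was listed at 0 in 3 of 3 *dpy-21(e428)* libraries (adjusted p = 0.0389, limma), and the adult markers summed to at most 0.162 FPKM there.

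The calls depended on single libraries. Leaving out any one of *dpy-21(e428)* replicate 1 or 2 or of the N2 libraries left 0 calls, and leaving out *dpy-21(e428)* replicate 3 gave 46. How many of all genes were called in that setting is not given here. Body wall muscle markers summed to 432.0, 245.6 and 35.6 FPKM in the *dpy-21(e428)* replicates, and furrow collagens to 573.0, 305.4 and 47.1 FPKM, in the order of the *col-165* levels. The part of embryo age was not tested. The N2 libraries are shared with the *dpy-27(y56)* comparison, so the pair of results is not independent.

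In *dpy-27(y56)* L1 larvae, limma called 0 of 100 members tested, 15 of which had an unadjusted p under 0.05, and 0.255% of all genes were higher and 0.0851% lower. The median was -0.43 over the members and 0.01 over all genes. The gene *col-46*, a neighbour of *col-47* on chromosome I, had 9.94 and 3.13 FPKM in N2 and 0.163, 0.271 and 0.228 FPKM in the mutant (-4.31 ± 0.91, adjusted p = 0.136, limma). Its groups were apart, but the spread of the N2 libraries was wide. The count of calls depended on both N2 libraries being kept, and the 2 N2 libraries stand apart from each other in the number of members detected.

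Mixed embryos differed widely between libraries of 1 group. Under *dpy-27* RNAi, limma called 0 of 83 members, 2 of which had an unadjusted p under 0.05, and 0% of all genes were higher and 0% lower; the median was 0.65 over the members and 0.05 over all genes. The level of *col-165* was 762.3, 1841, 86.4 and 690.8 FPKM under *dpy-27* RNAi, and with the vector it ranged from 45.8 FPKM, through a median of 291.6, to 1867 FPKM. The groups overlapped over their whole range. The summed level of the family ran from 514.9 to 19590 FPKM in the vector libraries, in which the muscle markers summed to between 106.7 and 3829 FPKM and the furrow collagens to between 105.5 and 1262 FPKM. The X-linked *col-176* had 3.07, 2.5, 2.49 and 4.47 FPKM under *dpy-27* RNAi and from 0.590 to 1.63 FPKM with the vector (1.5 ± 0.45, unadjusted p = 0.00719 and adjusted p = 1, limma), groups that did not overlap.

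Mixed embryos of *dpy-21(e428)* and *set-4(n4600)* were compared with each other, because N2 mixed embryos are not analysed here. Limma called 0 of 83 members and none had an unadjusted p under 0.05 (0% of genes higher and 0% lower). The median was 0.31 over the members and 0.00 over all genes. The level of *col-165* was 620.0, 924.7, 1513 and 1165 FPKM in *dpy-21(e428)* and 338.1, 921.5, 1098 and 1850 FPKM in *set-4(n4600)*, by label and in the order of the replicates, with overlap. The third value of the first group and the second of the other are from the libraries whose *set-4* level goes against the label. Without both of these libraries, an alternative chosen after seeing the data, limma called 0 of 79 members, none had an unadjusted p under 0.05 and the median was 0.07.

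In every group the col genes varied more between libraries than genes at large. The SD of log2(FPKM + 0.1) between libraries of a group was taken for each gene with a group mean above 1 FPKM, and its median was higher over the members than over all genes in 23 of 23 groups. With a minimum of 10 FPKM this held in 21 groups. In mixed embryos of the vector the median SD was 1.91 over the members and 0.72 over all genes, and in *dpy-27* RNAi mixed embryos 1.62 and 0.67, where it was 0.88 over the members without replicate 3. In N2 comma embryos it was 1.41 and 0.29, and without replicate 3 the members' median was 0.43. The smallest spread of an L3 group was that of *dpy-21(e428)*, with 0.38 over the members and 0.18 over all genes, but 1 library decided that order, since the members' median was 0.064 in N2 L3 without replicate 3 and 0.18 in mixed sex L3 without replicate 1. By comparison, the second N2 L3 collection had 1.00 and 0.31 and *set-4(n4600)* L3 had 1.11 and 0.29. Mixed sex L1 (0.39 and 0.33) was the group where members and genes at large were closest.

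**Figure D3:**
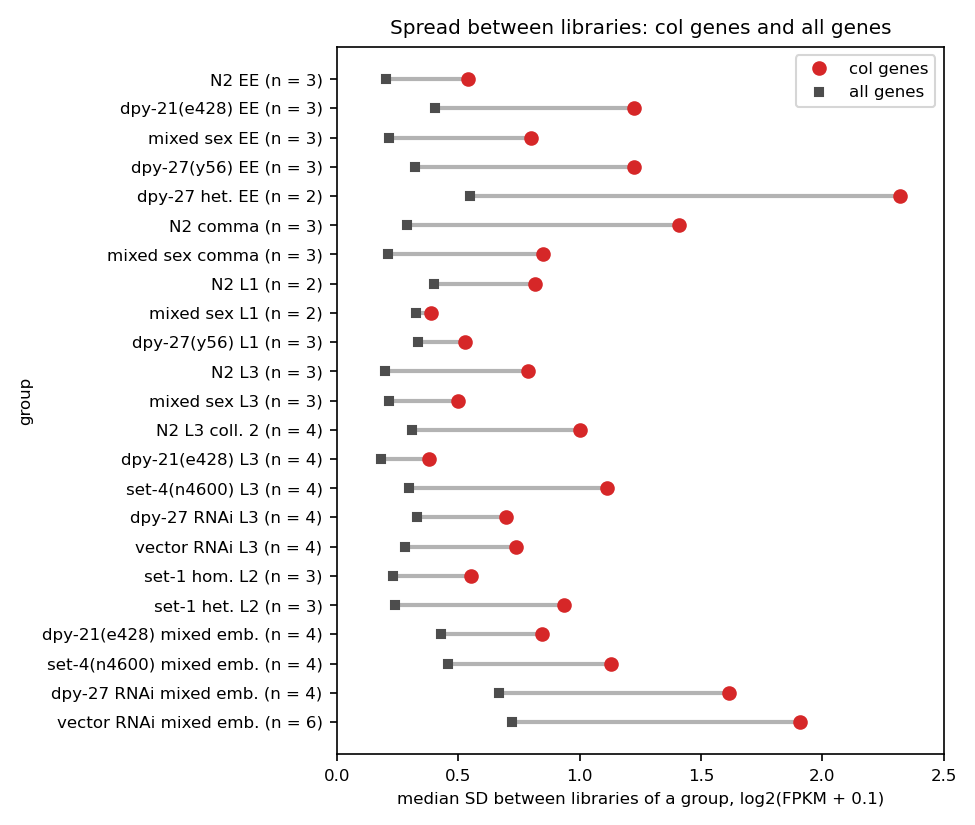
Median SD between libraries, in log2(FPKM + 0.1), over the col genes (circles) and over all genes (squares) with a group mean above 1 FPKM, for 23 groups with their number of libraries. The circle is above the square in value in every group, from 0.39 against 0.33 in mixed sex L1 to 2.32 against 0.55 in heterozygous *dpy-27(y56)* early embryos.

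In *dpy-21(e428)* L3 larvae, 4 of 107 members tested were higher and 3 lower, where 6.21% of all genes tested were higher and 0.753% lower. The share of members higher was thus not above that of genes at large. The median was -0.17 over the members and -0.03 over all genes. The rise was largest for the X-linked *col-176*, which had 62.5, 74.9, 230.5 and 83.9 FPKM in N2 and 1131, 2118, 1067 and 2187 FPKM in *dpy-21(e428)* (3.91 ± 0.44, adjusted p = 0.00300, limma). In the other 28 L3 and L2 libraries its level ranged from 13.4 FPKM, through a median of 145.2, to 1057 FPKM, so every *dpy-21(e428)* library was above all others.

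The other members higher lie on autosomes. The level of *col-96*, on chromosome III, was 1.67, 2.98, 2.55 and 1.75 FPKM in N2 and 12.7, 22.6, 16.7 and 36.3 FPKM in the mutant (3.11 ± 0.34, adjusted p = 0.00256, limma). Other L3 libraries reached 16.9 FPKM for this gene, in mixed sex larvae, so the *dpy-21(e428)* range overlaps with the rest of the series though not with its control. For *col-101*, on chromosome IV, the values were 5.99, 7.75, 20.3 and 5.64 FPKM and 42.0, 117.6, 38.7 and 116.4 FPKM (2.92 ± 0.51, adjusted p = 0.0156, limma), and for *col-141*, on chromosome V, 5.19, 8.55, 10.2 and 8.31 FPKM and 16.1, 21.5, 16.0 and 28.5 FPKM (1.27 ± 0.29, adjusted p = 0.0356, limma). Control and mutant were apart in both, but both ranges overlapped with other groups of the series. An RNAi L3 library reached 48.9 FPKM for *col-101*. The group mean of *col-141* was 18.6 FPKM in vector L3 and 18.8 FPKM in homozygous *set-1(tm1821)* larvae.

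The members called lower were the neighbours *col-12* and *col-13* on chromosome V and *col-133* on chromosome IV. The level of *col-12* was 116.3, 272.1, 97.9 and 199.9 FPKM in N2 and 48.5, 64.8, 57.5 and 67.4 FPKM in *dpy-21(e428)* (-1.49 ± 0.34, adjusted p = 0.0365, limma). The log2 difference was -1.46 ± 0.31 for *col-13* (adjusted p = 0.0289, limma) and -1.09 ± 0.26 for *col-133* (adjusted p = 0.0419, limma). No mutant library reached the lowest control library for *col-12*, but *set-4(n4600)* L3 had a library as low as 21.3 FPKM. With the first N2 L3 collection as the control, 8 members were higher and 19 lower. Leaving out single libraries gave between 2 and 12 calls, with 12 when replicate 3 of the N2 collection was left out and 2 without *dpy-21(e428)* replicate 2 or 4. Shares over all genes are not given for these settings, so the counts show dependence on the libraries and not a result about the family.

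Furrow collagens and molting genes were not called in this comparison (0 of 6, median 0.00, and 0 of 13, median 0.05). Of 19 X-linked members tested, 1 was higher and none lower, with a median of 0.18, where 29.7% of X-linked genes were higher with a median of 0.59. Of 88 autosomal members, 3 were higher and 3 lower (median -0.19), where 195 of 10459 autosomal genes were higher and 89 lower (median -0.08).

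The other L3 and L2 comparisons gave few calls. In *set-4(n4600)* L3, which shares its N2 control with *dpy-21(e428)*, limma called 0 of 107 members, 1 of which had an unadjusted p under 0.05 (0% of genes higher and 0.00801% lower), and the median was -0.11 against 0.00. The level of *col-176* was 13.4, 285.5, 282.3 and 36.4 FPKM in *set-4(n4600)*, on both sides of its control. In homozygous against heterozygous *set-1(tm1821)* larvae limma called 0 of 105 members, 7 of which had an unadjusted p under 0.05 (0.00778% of genes higher and 0.00778% lower), with a median of 0.52 against 0.01. The gene *col-71* had 4.59, 5.07 and 4.73 FPKM in heterozygotes and 2.29, 2.40 and 1.55 FPKM in homozygotes (-1.13 ± 0.22, adjusted p = 0.120, limma), groups that did not overlap.

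Under *dpy-27* RNAi at L3, limma called 0 of 102 members, 22 of which had an unadjusted p under 0.05 (0.0235% of genes higher and 0.00782% lower), with a median of -0.11 against -0.00. Deviations of libraries with the same replicate number had correlations between 0.137 and 0.635 across genes. Pairs with different numbers ran from -0.465 to 0.225, so the ranges overlap, and no label ties replicates to a day. With the replicate number as a block, a pairing chosen on these same data, 2 members were higher and 7 lower (1.13% and 0.696% of all genes). The level of *col-80* was 102.2, 235.3, 227.1 and 205.0 FPKM with the vector and 23.4, 42.1, 86.1 and 29.4 FPKM under *dpy-27* RNAi (-2.25, adjusted p = 0.0315 with the block and 0.153 without, limma). It was lower in 4 of 4 pairs and the groups did not overlap.

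The gene *col-158* had 66.8, 39.6, 16.1 and 5.15 FPKM with the vector and 10.1, 8.10, 4.02 and 1.09 FPKM under *dpy-27* RNAi (-2.33, adjusted p = 0.0308 with the block and 0.333 without, limma), lower in 4 of 4 pairs although the groups overlap. The gene *col-182* was higher in 4 of 4 pairs, with 30.5, 11.8, 3.49 and 7.54 FPKM and 107.4, 52.3, 21.7 and 70.2 FPKM (2.39, adjusted p = 0.0308 with the block and 0.212 without, limma), again with overlap. The other calls with the block were *col-89*, higher, and *col-93*, *col-146*, *col-147*, *col-160* and *col-162*, lower. Without replicate 4 of both groups the block gave 0 calls, and 50 members had an unadjusted p under 0.05, a count given without the share over all genes. The *dpy-27* transcript itself was not lower at L3, as given above.

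The difference between the effects of *dpy-27* RNAi and of *dpy-21(e428)* at L3 was tested with 4 groups that share no library. Limma called 0 of 105 members, 10 of which had an unadjusted p under 0.05 (0.0314% of genes higher and 0.102% lower), with a median of 0.18 against -0.00 over all genes. The lowest adjusted p were those of *col-96* (-3.01, adjusted p = 0.0513, limma) and *col-141* (-2.25, adjusted p = 0.0523, limma), and *col-176* gave -4.29 (adjusted p = 0.171, limma). The groups also differ in food and collection.

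**Figure D4:**
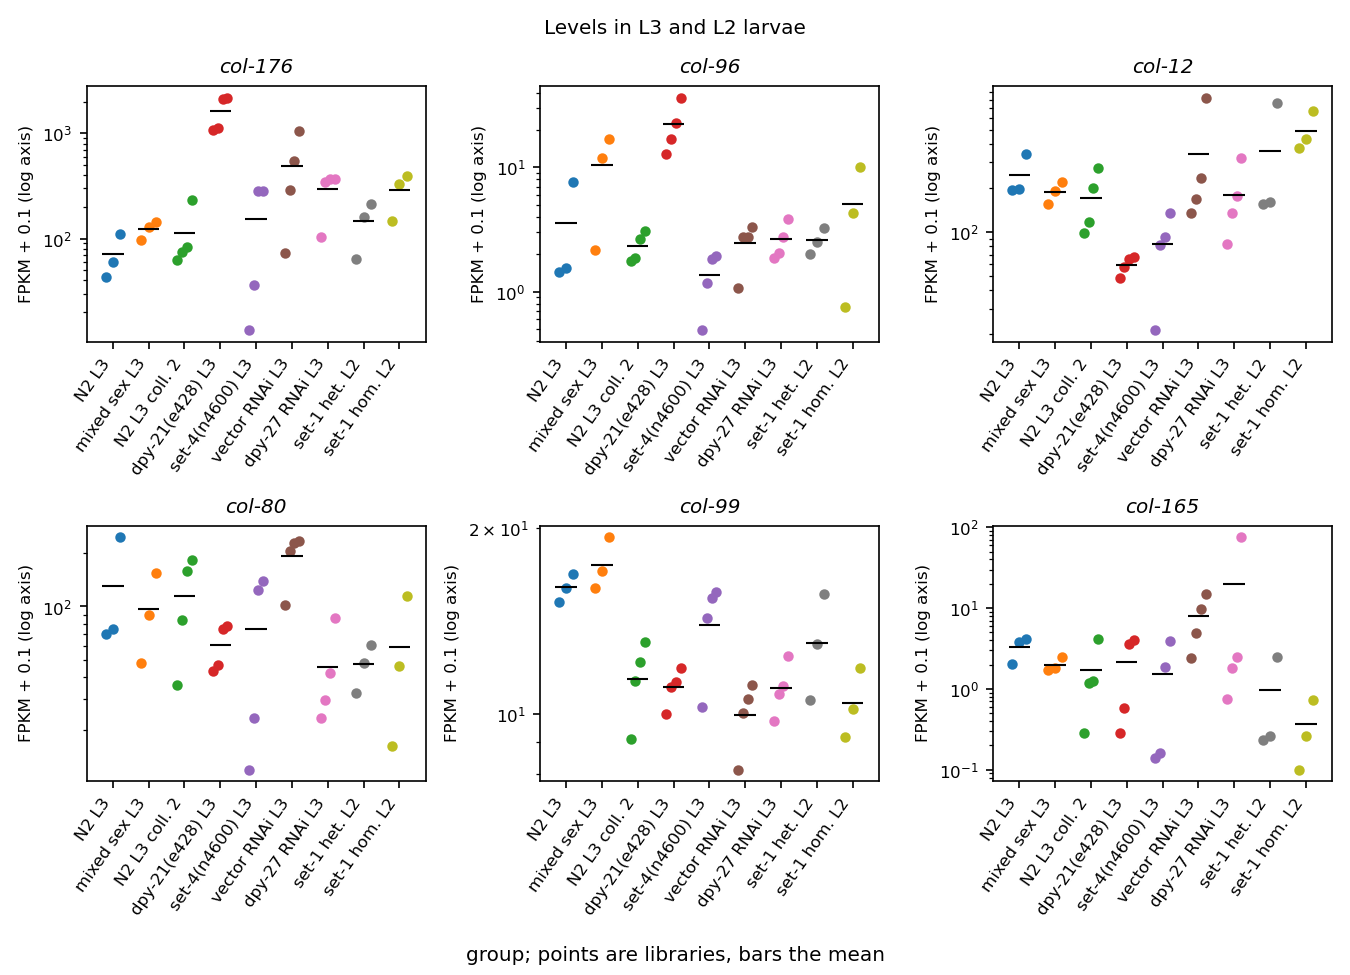
FPKM + 0.1 on a log axis for *col-176*, *col-96*, *col-12*, *col-80*, *col-99* and *col-165* in 9 groups of L3 and L2 larvae, where points are libraries and bars the mean. The *dpy-21(e428)* libraries of *col-176* lie between 1067 and 2187 FPKM, above every other library, and those of *col-12* between 48.5 and 67.4 FPKM, while *col-99* spreads over less than the others.

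Within the L3 groups, members differed in how much they varied. Averaged over 7 L3 groups, the SD between libraries was smallest for *col-99* (0.21), *col-118* (0.36) and *col-154* (0.42) and largest for *col-165* (1.52), *col-74* (1.46) and *col-110* (1.24). The level of *col-110* with the vector was 7.61, 2.61, 0.495 and 0 FPKM, and that of *col-118* in the same libraries was 32.2, 32.1, 38.6 and 93.0 FPKM. These genes thus moved in opposite directions between libraries of 1 group: replicate 4 was lowest for *col-110* and highest for *col-118*.

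This opposition ran along the furrow collagens. For each of the 32 L3 and L2 libraries of 9 groups, the deviation of every gene from its group mean was set beside the median deviation of the 6 furrow collagens, for 87 members and 11502 genes above 1 FPKM in each group. Across libraries Pearson's r was above 0.7 for 5 members, 5.75% of those compared against 2.04% of all genes, and below -0.7 for 12 members, 13.8% against 0.696%. The libraries of a group share their mean and every gene of a library shares its depth, so r is a description and no p is given. The 5 members with positive r were *col-46* (0.98, Spearman's rho 0.96), *col-128* (0.97), *col-47* (0.91), *col-153* and *col-149*, and the 12 with negative r included *col-118* (-0.80, rho -0.67), *col-107*, *col-12* (-0.79, rho -0.71), *col-13*, *col-130*, *col-154* and *col-91*.

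The neighbours *col-46* and *col-47* moved nearly one to one with the furrow collagens. The level of *col-46* with the vector was 40.7, 21.5, 33.1 and 4.51 FPKM, and the summed level of the furrow collagens was 1337, 660.4, 1146 and 188.7 FPKM in the same order of libraries. For *col-12* the values were 168.3, 133.9, 232.8 and 828.1 FPKM, so vector replicate 4 was lowest for *col-46* and for the furrow collagens and highest for *col-12*. Without the 2 libraries farthest from the median, vector L3 replicate 4 and heterozygous *set-1(tm1821)* replicate 3, r stayed above 0.7 for 3 members (*col-46*, *col-128* and *col-47*) and below -0.7 for 1 (*col-154*), and r of *col-12* was -0.67. Of the 13 molting genes, 6 had r above 0.7 (*mlt-11*, *noah-1*, *noah-2*, *nas-37*, *acn-1* and *ptr-4*), and the list ran from -0.20 for *nas-36* to 0.98 for *noah-1*. Of 11 other body shape collagens none had r above 0.7, with values from 0.02 for *dpy-14* to 0.64 for *lon-3*.

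**Figure D5:**
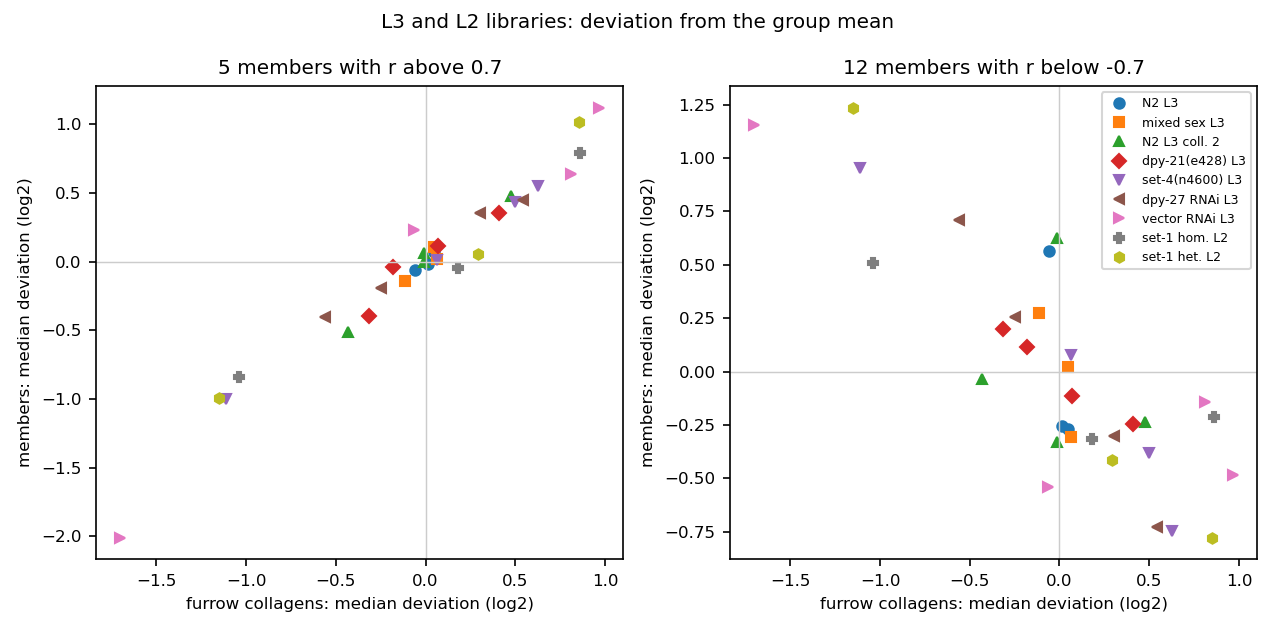
Median deviation from the group mean (log2) of the 5 members with r above 0.7 (left) and of the 12 with r below -0.7 (right) against that of the 6 furrow collagens, where each point is 1 of 32 L3 and L2 libraries and symbols mark the group. The members were sorted by r on these same libraries, so the direction of each slope is by construction; the points farthest to the left are vector L3 replicate 4 at -1.70 and heterozygous *set-1(tm1821)* replicate 3 at -1.15.

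The spike-in experiment gave counts for *set-4(n4600)* and N2 L1 larvae, scaled by the reads of the added C. briggsae larvae. C. elegans counts per library were between 1533531 and 3215078 and C. briggsae counts between 129184 and 331898, and edgeR's quasi-likelihood test was run on genes averaging 10 or more counts. Of 43 members tested, 6 were higher and 5 lower in *set-4(n4600)*, where 5.47% of all genes tested were higher and 20.8% lower. The median was 0.17 over the members and -0.24 over all genes. The members held 0.388% to 0.409% of the counts in *set-4(n4600)* and 0.276% to 0.293% in N2, so the groups did not overlap. Some members high in FPKM were almost absent from these counts. In N2, *col-92* had 0 counts in every spike-in library and *col-145* had 1, 3 and 3. Their N2 L1 means were 246.9 and 468.0 FPKM. For *col-166*, at 1494 FPKM, the counts were 887, 1121 and 1984. The reason was not tested, and the share and the median describe only what was counted. The *set-4* gene had 1 count in each *set-4(n4600)* library and 43 to 72 in N2.

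The largest rise was that of *col-80*, with 108, 88 and 135 counts in N2 and 421, 454 and 507 counts in *set-4(n4600)* (1.38 ± 0.21, adjusted p = 1.5e-04, edgeR). For *col-160* the counts were 341, 352 and 676 and 1292, 1513 and 1569 (1.05 ± 0.17, adjusted p = 2.2e-04, edgeR). Counts per library are before scaling, and the groups remained apart after it for both genes. The others higher were *col-91* and *col-147*, with groups apart after scaling, and *col-98* and *col-103*, whose groups overlapped.

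The members lower were *col-77*, with 8, 45 and 35 counts in N2 and 7, 14 and 11 in *set-4(n4600)* (-2.11, adjusted p = 0.0025, edgeR), *col-125* (-1.20, adjusted p = 0.0230, edgeR), *col-65*, *col-76* and *col-165*. Before scaling N2 replicate 1 lay within the range of the mutant for *col-77*, and after scaling the groups were apart. After scaling they were apart for *col-125* and *col-76* as well, while the groups of *col-65* and *col-165* overlapped. Of the stage sets, 2 of 3 tested members of the comma set were lower, and of the L3 set 6 of 37 were higher and 3 lower. The molting genes (5 of 8 tested lower, median -0.88) and 2 of 5 germline markers were lower, and 6 of 6 body wall muscle markers were higher (median 0.68); their part in the result was not tested. With TMM over the C. elegans counts 12 members were higher and 3 lower, with a median of 0.39, so the split between higher and lower calls depends on the scaling. Under that scaling the shares over all genes are not given here.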

How the data were processed

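The data are 79 mRNA-seq libraries of C. elegans in 23 groups and 6 spike-in libraries. The authors deposited FPKM per gene (WS220 gene models), made from reads that, per the submitters' processing notes, went through CASAVA 1.8, TopHat2 2.0.11 and Cufflinks 2.2.0, and raw read counts per gene for the spike-in, with HTSeq 0.6.0 among the tools. The depth behind the FPKM values is not given in the sources used here. In the FPKM file, 13 columns match no sample here and were not used, and 78 genes had a blank value. In the C. briggsae counts 5 summary lines, 24.5% to 26.9% of the reads, were left out.

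Median-of-ratios scaling was applied, and libraries were tested with limma 3.58.1 (R 4.3.3) on log2(FPKM + 0.1), over genes above 1 FPKM, with Benjamini-Hochberg adjustment. Spike-in counts were tested with edgeR 4.0.16, with TMM factors of the C. briggsae counts, and with DESeq2 1.42.0 as an alternative. Scripts were tested on simulated data. Replicate numbers were taken to pair libraries where each pair correlated above 0.1 in its deviations from the group means. This held in *dpy-21(e428)* EE, RNAi L3, *set-4(n4600)* L3 and *set-1(tm1821)*. The main tests of these comparisons were still unpaired, and the replicate number entered as a block only among the alternatives. Named genes were the 4 highest per stage set, the 2 largest rises and 2 largest falls past 0.05 per comparison with groups apart, the 3 largest and 3 smallest SD over L3 groups and a list of known collagens (*col-2*, *col-7*, *col-10*, *col-12*, *col-17*, *col-19*, *col-40*, *col-62* and *col-99*); other genes were named after their values were seen. The members and all gene lists were chosen with earlier results of these data known. Alternatives were another pseudocount, filter, scaling, control or stage rule, the replicate block and leaving out each library.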

Additional observations from a re-analysis of the deposited data

Results flagged for a closer look

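In 73 groups of values with 4 or more libraries, 9 held a library whose gap to the nearest other exceeded the 95% limit for a distant sample. Some genes were looked at because their SD over these same L3 libraries was large or small, and several flags fall on 1 library. The usual rate of 1 in 20 such groups therefore does not apply, and the flags are a description. In vector L3 replicate 4, *col-118* was at 93.0 FPKM, *col-154* at 465.1, *col-12* at 828.1 and *col-13* at 777.8, each far above the other vector libraries. The summed furrow collagens of that library were 188.7 FPKM, the lowest of its group, and the part of larval timing was not tested. In *dpy-27* RNAi L3 replicate 2, *col-74* was at 55.7 FPKM and *col-165* at 75.5 FPKM, far above the other libraries of that group. The median deviation of the members from their group mean was 0.51 in *dpy-27* RNAi L3 replicate 4, above the other 3 libraries. The X-linked *col-176* was at 230.5 FPKM in replicate 3 of the second N2 L3 collection, above its group, and at 103.0 FPKM in *dpy-27* RNAi L3 replicate 4, below its group. The heterozygous *dpy-27(y56)* early embryos, which stand outside the main comparisons, had a summed member level of 612.5 and 6534 FPKM, above every N2 early embryo library (at most 153.0 FPKM).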

How the results depend on the processing

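Counts of calls over the members kept within 1.5 times under most alternatives. Comparisons without a call in either setting are included as kept, so this says little about the comparisons that had calls. Shares over all genes are mostly not given for the alternatives, so these counts describe dependence on the settings. Without a filter on low values *dpy-21(e428)* EE gave 3 calls. With the first N2 collection as control *dpy-21(e428)* L3 gave 27, and with heterozygous embryos as control *dpy-27(y56)* EE gave 0, where *col-74* turned to -1.39 and *col-165* to -1.53. The difference between the RNAi and *dpy-21(e428)* effects gave 2 calls with a pseudocount of 1 and 2 without scaling, and the spike-in 20 without a filter. With N2 means above 10 FPKM, 72 members had a stage set (EE 0, comma 6, L1 1). With the highest stage at least 2 times the next, the EE set had 7 members, and with the identical library kept as N2 the L1 set had 24, an alternative chosen after seeing the data. The causes were not tested. Among named genes and group spreads, leaving out 1 library ended 30 calls and moved 11 values while 179 kept their direction and their side of the threshold, and other settings ended 5 calls, moved 7 values and left 167.

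With the replicate block, RNAi L3 gave 9 calls, *dpy-27(y56)* L1 gave 1 and *dpy-21(e428)* EE gave 17; the block moved no other count by over 1.5 times. Samples of L1 hermaphrodites and mixed sex larvae share 1 number, so no block was fitted there.

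Leaving out 1 library at a time gave 0 to 11 calls in L1 hermaphrodite against mixed sex, 0 to 46 in *dpy-21(e428)* EE, 0 to 14 in *dpy-27(y56)* L1, 2 to 12 in *dpy-21(e428)* L3, 0 to 2 in the difference of effects and 7 to 20 in the spike-in (20 without N2 replicate 1). The EE set ranged from 6 to 14 members and the L1 set from 11 to 51. A lone library left in an arm was assumed to vary like the other group. Spread between libraries and the unknown depth of the FPKM values limit what low members can show.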
